A study of Mus musculus with 13 samples.

Results

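The mitochondrial ribosomal proteins are the products of the genes named Mrpl and Mrps with a number. All 77 such genes that were measured here on a probe set of their own were described in mouse retina, 48 of them named Mrpl and 29 named Mrps, out of 19937 genes on the array. Mrpl53 was left out because its probe set carried a second gene symbol as well. The names give the subunit with few exceptions. The products of 50 of the genes belong to the large subunit of the mitochondrial ribosome, those of 26 to the small subunit, and Mrps36 encodes a protein of the 2-oxoglutarate dehydrogenase complex and no ribosomal protein. Mrps18a and Mrps30 carry a small subunit name, and their products sit in the large subunit.

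Mitochondria keep a small genome of their own, and the proteins it encodes are core subunits of the respiratory chain and of the ATP synthase. These are made inside the organelle by a separate ribosome. Its RNA comes from the mitochondrial genome, whereas every one of its proteins is encoded in the nucleus, translated in the cytosol and imported. Some of these proteins have a counterpart in the ribosome of bacteria, and others were gained by the mitochondrial ribosome alone. The coactivator PGC-1α, whose gene is Ppargc1a, works with transcription factors such as NRF1, the ETS factor GABP and the estrogen-related receptors on nuclear genes of mitochondria. Photoreceptors are packed with mitochondria in their inner segments.

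Gene expression was measured with Affymetrix Mouse Gene 1.0 ST arrays on total RNA of the retina, and the methods state that both retinas of an animal were pooled. The groups compared were PGC-1α global KO mice kept in the dark (KO dark, 3 arrays), wild type C57 BL/6 NRj mice kept in the dark (WT dark, 4 arrays of which 3 were compared), and both genotypes after light exposure (KO light and WT light, 3 arrays each). According to the methods the mice were 6 to 13 weeks old and the light was 15000 lux for 2 h, after which they recovered overnight in the dark. The labels give female mice for the dark groups, apart from a male in WT dark replicate 4, and males throughout after light. Light and sex can therefore not be told apart in any comparison of light with dark, and the methods name male mice only. The methods also describe the KO mice as C57 BL/6 and as a gift from another laboratory, whereas the WT mice were purchased. Genotype and source of the mice can therefore not be told apart in any comparison of KO with WT. The knockout removes PGC-1α from every cell of the body, so that nothing here is particular to photoreceptors. Whole retina was measured, in which fewer cells of a type and less RNA per cell cannot be told apart.

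The arrays labelled WT dark replicate 4 and KO light replicate 3 stood apart from their groups. KO light replicate 3 was nearer to the mean of WT dark than to that of KO light replicates 1 and 2 for 60 of the 77 genes, and for 73.9% of the bright genes, those outside the third with the lowest mean level. WT dark replicate 4 was nearer to KO light replicates 1 and 2 than to WT dark for 58 of the 77. That share was slightly below the share among the bright genes, so it is not particular to this family. The labels were kept in all main values, with WT dark replicate 4 left out. Results on KO light are also given after KO light replicate 3 was replaced by the array labelled WT dark replicate 4, which is called the exchanged arrays. The exchange puts together arrays that resemble each other, so that a smaller spread for many genes and more calls follow from the choice of arrays. The same holds where KO light replicate 3 is left out. Calls and adjusted p of these fits are therefore no separate support for a difference. Ppargc1a itself lay between 9.96 and 10.4 log2 units in the 6 KO arrays and between 9.85 and 10.03 in the 7 WT arrays. The sources used here do not say whether its probes lie in the deleted part of the gene, so that it does not check the genotypes. Of the rod markers listed all but 1 were measured, and their mean lay between 12.28 and 12.38 log2 units in the dark and WT light arrays, at 12.01 in WT dark replicate 4, and between 12.05 and 12.24 in KO light.

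As labelled, the mean level of the 77 genes was lowest in KO dark and highest in WT light. It was 8.270, 8.296 and 8.287 log2 units in the 3 KO dark arrays and 8.349, 8.332 and 8.301 in the 3 WT dark arrays, so that the dark groups did not overlap but came within 0.01 log2 units of each other. It was 8.373, 8.397 and 8.281 in KO light, 8.404, 8.369 and 8.417 in WT light, and 8.431 in the array labelled WT dark replicate 4. KO light replicate 3 was at the level of KO dark, and the other KO light arrays were above all WT dark arrays that were compared. With the exchanged arrays the mean of KO light was 8.400 (SD 0.029, n = 3) against 8.397 in WT light, so that WT light was no longer the highest. The mean over all 13291 bright genes lay between 8.497 and 8.557 log2 units over all 13 arrays. It averages far more genes, on arrays that had been brought to a common level, so that it could move little. The mean of the 58 cytosolic ribosomal proteins lay between 8.687 and 8.952 over the same arrays. As labelled, KO dark had the lowest of the 4 group means for 45 of the 77 genes, WT light had the highest for 41, and for 29 both held. The genes differed little between replicates, with a median SD within groups of 0.08 log2 units (range 0.034 to 0.298), against 0.085 over all genes.

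As labelled, both subunits showed this order, and the subunits of complex I of the respiratory chain did as well. The mean of the 50 large subunit proteins was 8.40 to 8.43 log2 units in KO dark, 8.42 to 8.49 in WT dark, 8.43 to 8.53 in KO light, against 8.50 to 8.55 in WT light. The mean of the 26 small subunit proteins was 8.06 to 8.09, 8.11 to 8.13, 8.04 to 8.20 and 8.15 to 8.20 in the same order. Complex I, most of whose subunits are also made from nuclear genes, had a mean over 34 Nduf genes of 9.30 to 9.31 in KO dark, 9.36 to 9.43 in WT dark, 9.34 to 9.45 in KO light, against 9.46 to 9.51 in WT light. The 58 cytosolic ribosomal proteins, which serve protein synthesis outside mitochondria, had no such order in the dark, with 8.71 to 8.74 in KO dark and 8.69 to 8.75 in WT dark. After the exchange the mean of KO light was 8.517 for the large subunit, below the 8.531 of WT light, and 8.217 for the small subunit, above the 8.177 of WT light. It was 9.423 for complex I and 8.911 for the cytosolic ribosomal proteins, against 9.487 and 8.779 in WT light.

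**Figure D1:**
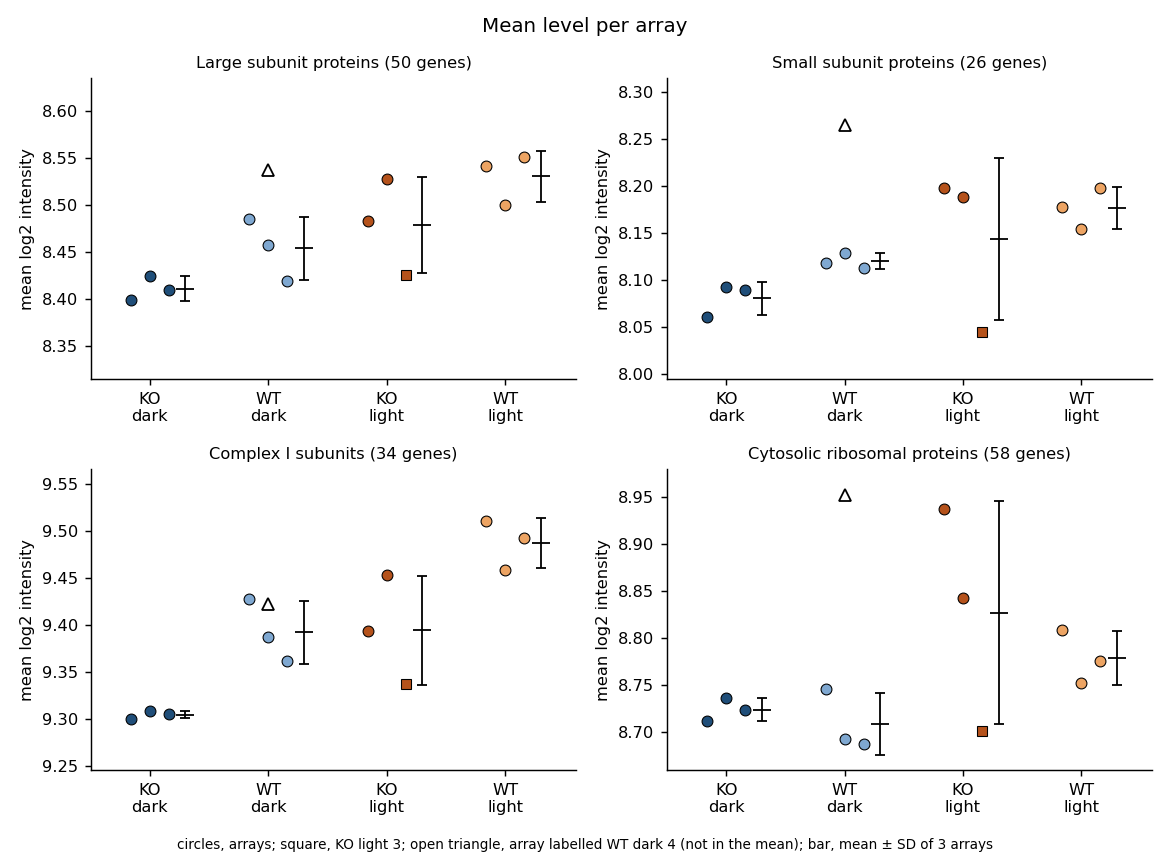
Mean log2 intensity per array (vertical axis, the same span in every panel) of the large and small subunit proteins, the complex I subunits and the cytosolic ribosomal proteins, by group on the horizontal axis. Circles and the square (KO light 3) are single arrays, the open triangle is the array labelled WT dark 4, which is not in the mean, and bars give the mean and SD of 3 arrays. KO light 3 lies at or near the dark arrays in every panel, and KO dark lies below WT dark for the first 3 sets except for an overlap in the large subunit.

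In the dark, the question was whether loss of PGC-1α changes these genes in the unexposed retina. More of them were lower in KO dark than higher, by small amounts, and none passed the test. The mean was lower in KO dark for 57 of the 77 genes and higher for 20, with a median log2 difference of -0.039 against 0.003 over all genes, and single differences ran from -0.25 to 0.15. Calls needed an adjusted p under 0.05 together with a ratio no smaller than 1.2 or no larger than 0.87, and limma made 0 of them among the 77, against 0.0752% of all genes. At an unadjusted p under 0.05, 9 were lower and 0 higher, against 664 and 751 of all 19937 genes. The arrays of the dark groups did not overlap for 14 genes that were lower in KO dark, against 7.45% of all genes, and for 2 that were higher, against 9.26%. A lower mean in KO dark was found for 41 of the 50 large subunit proteins and 15 of the 26 small subunit proteins. Their medians were -0.039 and -0.028. The arrays did not overlap on the low side for 7 of the 50 and 6 of the 26, and on the high side for 0 and 2. The difference between the subunits was not tested. Among complex I subunits 30 of 34 were lower, with a median of -0.09, and among cytosolic ribosomal proteins 38 of 58 were higher, with a median of 0.019.

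Mrpl13, a large subunit protein with a bacterial counterpart, was farthest below its WT level. It measured 8.13, 8.02 and 8.06 log2 units in KO dark and 8.35, 8.33 and 8.27 in WT dark. The highest KO dark array was below the lowest WT dark array, and WT dark replicate 4 (8.30) lay among the WT dark arrays. The log2 difference was -0.25 (SE 0.05) with an adjusted p of 0.128. With the exchanged arrays the difference was the same and the spread of the fit smaller, and Mrpl13 was called, as 1 gene of the 77 (adjusted p = 0.0435, against 0.552% of all genes called lower). The p moved between 0.0412 and 0.405 over all alternatives, and leaving out KO light replicate 3 also gave a call.

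Mrps18b is 1 of several nuclear copies of the bacterial S18 protein of the small subunit. It was at 8.76, 8.72 and 8.71 log2 units in KO dark and at 8.98, 8.95 and 8.89 in WT dark, without overlap and with tight replicates. The log2 difference was -0.21 (SE 0.06), and it did not pass the test (adjusted p = 0.279). Mrpl1, whose bacterial counterpart forms the mobile stalk at the exit site of the ribosome, was at 8.51, 8.42 and 8.33 in KO dark and at 8.68, 8.52 and 8.56 in WT dark (log2 difference -0.16, SE 0.06, adjusted p = 0.528). The groups of Mrpl1 came within 0.01 log2 units of each other. The other genes without overlap on the low side were Mrpl10, Mrpl19, Mrpl35, Mrpl38, Mrpl45, Mrps2, Mrps22, Mrps23, Mrps28, Mrps35 and Mrps36. Mrps36 measured 7.27, 7.16 and 7.28 in KO dark and 7.53, 7.34 and 7.30 in WT dark, so that the groups nearly touched. The gene that encodes no ribosomal protein thus had a difference of -0.15 like those around it. Its level is an average of 2 unlike probe sets, with means of 8.68 and 5.98 and dark differences of -0.19 and -0.11. The dimmer one stands among probe sets of chromosome 7, while the gene lies on chromosome 13.

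The 2 genes without overlap on the high side were both small subunit genes. Mrps14, which has a bacterial counterpart, was at 8.0, 7.87 and 7.86 log2 units in KO dark and at 7.77, 7.80 and 7.75 in WT dark. Its difference of 0.14 (SE 0.10) was far from the threshold (adjusted p = 0.902). Mrps27, which has no bacterial counterpart, was at 7.29, 7.25 and 7.25 in KO dark and at 7.22, 7.20 and 7.11 in WT dark (0.09, SE 0.09, adjusted p = 0.938). WT dark replicate 4 was above every KO dark array for both, with 8.11 and 7.59.

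The promoters of the first genes named in the dark comparison are shown because the factors that PGC-1α works with bind sequences next to the start of transcription. These are the 250 bases before the start, read 5′ to 3′ on the strand of the gene, from RefSeq with the build GRCm38.p6. Capitals mark a match to one of 5 motifs that were searched on both strands.
Mrps18b: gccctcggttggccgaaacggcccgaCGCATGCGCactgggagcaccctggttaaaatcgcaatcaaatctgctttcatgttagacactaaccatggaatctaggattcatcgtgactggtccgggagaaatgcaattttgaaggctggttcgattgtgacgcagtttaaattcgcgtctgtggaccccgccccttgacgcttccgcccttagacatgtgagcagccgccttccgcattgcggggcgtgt
Mrpl1: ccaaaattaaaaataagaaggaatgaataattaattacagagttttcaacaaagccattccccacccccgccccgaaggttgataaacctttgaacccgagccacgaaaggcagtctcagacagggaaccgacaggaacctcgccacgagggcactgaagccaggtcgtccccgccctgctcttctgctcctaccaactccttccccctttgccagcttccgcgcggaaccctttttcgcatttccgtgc
Mrps14: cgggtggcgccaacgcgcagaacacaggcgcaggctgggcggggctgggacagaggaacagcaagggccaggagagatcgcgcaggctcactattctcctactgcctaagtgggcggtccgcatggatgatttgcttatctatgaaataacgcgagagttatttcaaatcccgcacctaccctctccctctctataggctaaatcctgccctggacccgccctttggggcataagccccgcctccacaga
Mrps27: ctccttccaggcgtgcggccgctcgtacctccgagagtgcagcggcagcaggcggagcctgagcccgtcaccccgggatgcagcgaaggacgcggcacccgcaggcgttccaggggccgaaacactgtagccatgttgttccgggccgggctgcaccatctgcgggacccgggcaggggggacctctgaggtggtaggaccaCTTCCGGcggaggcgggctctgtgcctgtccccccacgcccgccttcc
The stretches are chr17:35916441-35916690 on the minus strand for Mrps18b, and on the plus strand chr5:96209865-96210114 for Mrpl1, chr1:160194965-160195214 for Mrps14 and chr13:99344536-99344785 for Mrps27. The promoter of Mrps18b holds a match to the NRF1 motif that begins 224 bases before the start, and that of Mrps27 holds a match to the ETS motif 48 bases before it. Those of Mrpl1 and Mrps14 hold none of the 5. The genes of this set that were lower in KO dark (Mrps18b and Mrpl1) and those that were higher (Mrps14 and Mrps27) thus each include a promoter with a match and a promoter without.

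Over the family, the NRF1 and ETS motifs were common. Windows of 300 bases, which reach 50 bases past the start, were found for 68 of the 77 genes by gene ID. Mrpl13, Mrpl15, Mrpl19, Mrpl38, Mrpl4, Mrpl54, Mrps28, Mrps34 and Mrps35 were not matched. The NRF1 motif GCGCANGCG was present for 16 of the 68 genes (23.5%), against 7.03% of 27025 genes with a window. The ETS motif CCGGAAG, which GABP and related factors share, was present for 25 (36.8%), against 9.93%. The YY1 motif AAGATGGCG was present for 8 (11.8%), against 1.64%, and the cyclic AMP response element TGACGTCA for 2 (2.94%), against 2.03%. The motif TCAAGGTCA of the estrogen-related receptors was found for 0 of the 68, against 0.466%. No motif contains another of the 5, but the end of the ETS motif and the start of the YY1 motif share 3 letters and can overlap. The windows of the 68 matched genes were richer in G and C, with a median of 58.5% against 52.7% over all windows, and a match describes letters only.

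After light, the question was whether the genotypes differ in the exposed retina. As labelled, most of these genes had a lower mean in KO light than in WT light, none passed the test, and the pattern depended on KO light replicate 3. The mean was lower for 59 of the 77 and higher for 18, with a median log2 difference of -0.057 against -0.015 over all genes. Limma called 0 of the 77, against 0.176% of all genes. At an unadjusted p under 0.05 there were 11 lower and 0 higher, against 1430 and 1140 of all 19937 genes. The arrays did not overlap for 10 genes on the low side, against 8.45% of all genes, and for 1 on the high side, against 5.63%. After the exchange 44 were lower and 33 higher, the median was -0.025 against -0.023 over all genes, and 7 genes did not overlap on the low side, against 15.4%, and 8 on the high side, against 13.9%. The lower mean after light was thus not kept when the array labelled WT dark replicate 4 took the place of KO light replicate 3.

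The largest differences on the low side without overlap as labelled were in 3 large subunit genes with bacterial counterparts. Mrpl3, whose counterpart lies close to the peptidyl transferase centre, was at 9.18, 9.16 and 8.85 log2 units in KO light and at 9.34, 9.20 and 9.24 in WT light (-0.20, SE 0.09, adjusted p = 0.379). Mrpl9 was at 8.19, 8.17 and 8.01 against 8.34, 8.21 and 8.34 (-0.17, SE 0.08, adjusted p = 0.385). Mrpl15 was at 8.09, 8.13 and 7.90 against 8.21, 8.22 and 8.16 (-0.16, SE 0.07, adjusted p = 0.337). In all 3 the lowest value was that of KO light replicate 3, and with the exchanged arrays the differences were -0.05, -0.07 and -0.01. Mrpl22, a large subunit gene whose counterpart lines the exit tunnel, was the 1 gene without overlap on the high side, with 7.49, 7.55 and 7.87 in KO light and 7.41, 7.45 and 7.31 in WT light (0.25, SE 0.13, adjusted p = 0.454). Its highest value was that of KO light replicate 3, and with the exchanged arrays the difference was 0.12 (SE 0.11, adjusted p = 0.518).

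Between KO light and WT light 2 of the 77 genes were called with the exchanged arrays, both higher and both of the small subunit, against 4.56% of all genes. Mrps25, which has no bacterial counterpart, was at 9.87 and 9.46 log2 units in KO light replicates 1 and 2 and at 9.72 in the array labelled WT dark replicate 4, but at 8.78 in KO light replicate 3. It was at 8.84, 8.93 and 9.16 in WT light, at 8.95, 8.80 and 8.85 in KO dark and at 8.88, 8.89 and 8.65 in WT dark. The 3 high arrays overlapped with no other array, and Mrps25 had the widest range of the 77 genes over the 13 arrays (1.22 log2 units). Its log2 difference was 0.39 (SE 0.20, adjusted p = 0.435) as labelled and 0.70 (SE 0.11, adjusted p = 0.00116) with the exchanged arrays. Leaving out KO light replicate 3 without a replacement also called Mrps25. Mrps6, the counterpart of bacterial S6, was at 8.59, 8.33 and 8.19 in KO light, at 8.76 in the array labelled WT dark replicate 4 and at 8.12, 8.15 and 8.30 in WT light. The difference was 0.18 (SE 0.09, adjusted p = 0.43) as labelled and 0.37 (SE 0.09, adjusted p = 0.0203) with the exchanged arrays.

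**Figure D2:**
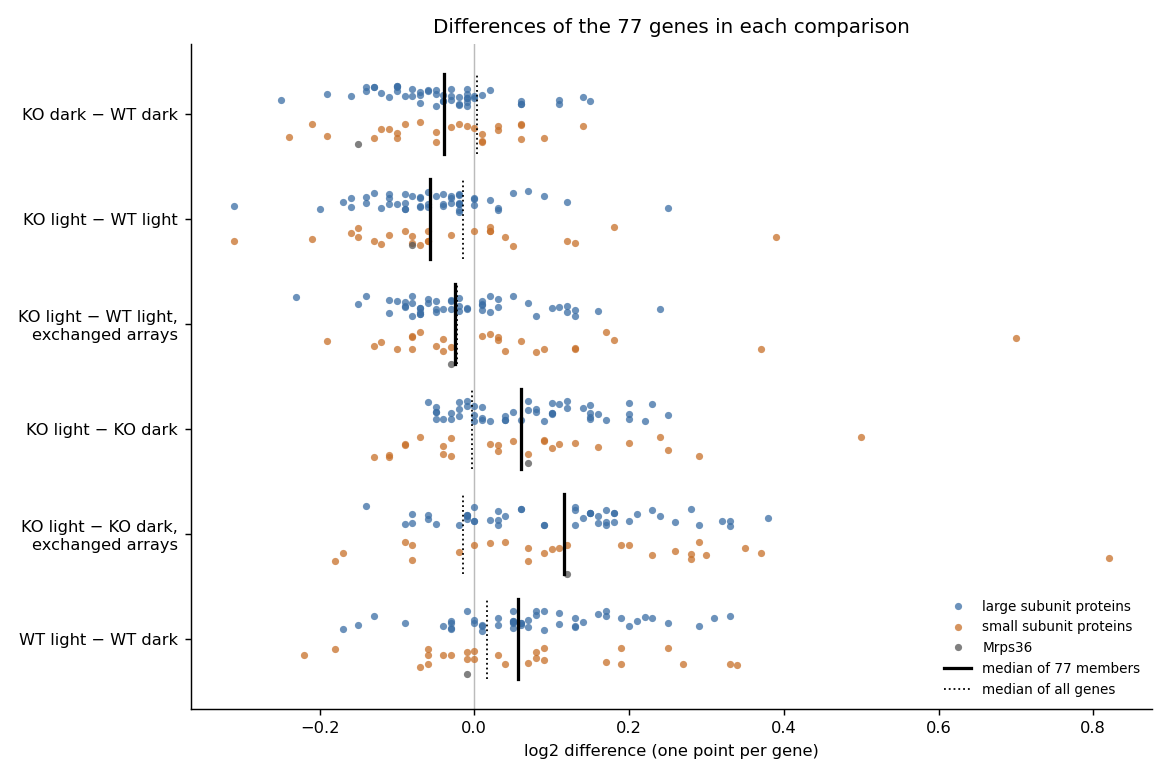
Log2 difference of each of the 77 genes (1 point per gene, horizontal axis) in each comparison, with large subunit proteins, small subunit proteins and Mrps36 in separate colours, the median of the 77 as a solid line and the median of all genes as a dotted line. The median of the 77 lies left of that of all genes in the dark (-0.039 against 0.003) and right of it for light against dark in KO mice (0.061 against -0.003), and the point at 0.70 and 0.82 with the exchanged arrays is Mrps25.

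The genes listed as markers of reactive Müller glia, the supporting glia of the retina, moved with the same arrays. They were Gfap, Lcn2, Edn2, Serpina3n, Vim, Osmr, Socs3 and Cebpd. In whole retina it is not known which cells made these transcripts. All 8 listed were measured, and their mean was 9.78 and 9.50 log2 units in KO light replicates 1 and 2 and 9.96 in the array labelled WT dark replicate 4. It was 8.16 in KO light replicate 3, 8.16 to 8.86 in WT light and 7.81 to 8.10 in the dark arrays compared. The mean of the 7 markers of microglia and macrophages was 7.21 and 7.24 in KO light replicates 1 and 2 and 7.31 in the array labelled WT dark replicate 4, against 6.92 to 7.09 in all other arrays. The mean of the 8 markers of the retinal pigment epithelium, the layer behind the retina, ranged from 6.96 to 8.36 over all arrays, and each pair of groups overlapped. Single markers did differ. As labelled, all 8 were lower in WT light than in WT dark (median log2 difference -0.359), 3 of them without overlap and 1 called. Between KO light and WT light 5 were higher and 3 lower, with 3 without overlap on the high side and 0 on the low side. The part of these cells in the values of Mrps25 and Mrps6 was not tested.

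In the KO retina, light was compared with dark to ask how these genes respond without PGC-1α. As labelled none was called, although more were higher after light than lower. The mean was higher in KO light for 53 of the 77 and lower for 24, with a median log2 difference of 0.061 against -0.003 over all genes. Limma called 0, against 0.1% of all genes. At an unadjusted p under 0.05 there were 16 higher and 0 lower, against 1594 and 1185 of all 19937 genes. The arrays did not overlap for 17 genes on the high side, against 6.44% of all genes, and for 0 on the low side, against 6.67%. Among the bright genes, to which 76 of the 77 belong, the share without overlap on the high side was 8.39%. KO dark stands in this comparison and in that of the dark genotypes, so that genes low in KO dark count in both.

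With the exchanged arrays 13 of the 77 genes were called higher in KO light than in KO dark and 0 lower, against 7.01% of all genes called higher. They were Mrpl15, Mrpl19, Mrpl23 and Mrpl36 among the large subunit genes with bacterial counterparts, Mrpl38 and Mrpl52 among those without, Mrps6, Mrps18b, Mrps18c and Mrps28 among the small subunit genes with counterparts, and Mrps23, Mrps25 and Mrps26 among those without. Their log2 differences ran from 0.28 to 0.82. The median over the 77 was 0.116, against -0.014 over all genes, and the arrays did not overlap for 37 genes on the high side, against 20.0% of all genes, and for 3 on the low side, against 18% of all genes. Of the bright genes 28.2% did not overlap on the high side. Other sets were as high in this comparison: of the 58 cytosolic ribosomal proteins 18 were called higher and 32 did not overlap on the high side, with a median of 0.169, and of the 34 complex I subunits 6 were called higher and 17 did not overlap, with a median of 0.101. When KO light replicate 3 was left out without a replacement, 8 of the 13 were called and no other. The share of all genes called in that fit is not given, and both counts depend on the choice of arrays.

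Mrps25 led them with a log2 difference of 0.82 (SE 0.11, adjusted p = 0.000188) with the exchanged arrays, and of 0.50 (SE 0.20, adjusted p = 0.293) as labelled. Mrps28, a small subunit gene, was at 7.83, 7.81 and 7.73 log2 units in KO dark and at 8.11, 8.23 and 7.90 in KO light. These did not overlap even as labelled, at 0.29 (SE 0.09, adjusted p = 0.197), and with the exchanged arrays the difference was 0.37 (SE 0.07, adjusted p = 0.00263). Mrpl15 was at 7.73, 7.81 and 7.87 in KO dark and at 8.09, 8.13 and 7.90 in KO light, with differences of 0.23 (adjusted p = 0.175) and 0.38 (adjusted p = 0.00133). Mrps18b was at 9.07, 8.91 and 8.81 in KO light, all above its KO dark arrays, with differences of 0.20 (adjusted p = 0.192) and 0.35 (adjusted p = 0.00289).

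Mrps23 of the small subunit was at 8.09, 8.04 and 8.16 log2 units in KO dark and at 8.42, 8.40 and 8.20 in KO light (0.24, SE 0.06, adjusted p = 0.156 as labelled, and 0.28, adjusted p = 0.0015 with the exchanged arrays). Mrps26 was at 7.12, 7.18 and 7.38 against 7.41, 7.59 and 7.44, and had the highest adjusted p of the calls (0.25, adjusted p = 0.307 as labelled, and 0.30, SE 0.10, adjusted p = 0.0495 with the exchanged arrays). Mrpl38, which has no bacterial counterpart, was at 8.44, 8.45 and 8.38 in KO dark, at 8.72 and 8.66 in KO light replicates 1 and 2 and at 8.35 in KO light replicate 3. The array labelled WT dark replicate 4 was at 8.73, and the difference was 0.15 (adjusted p = 0.423) as labelled and 0.28 (SE 0.04, adjusted p = 0.000735) with the exchanged arrays. Mrpl36 and Mrpl52 had the same shape (differences of 0.22 and 0.20 as labelled, and of 0.33 and 0.32 with the exchanged arrays), with 8.59 and 8.06 in KO light replicate 3 against 8.92 and 8.96, and 8.43 and 8.29, in KO light replicates 1 and 2.

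Mrpl23, the counterpart of a bacterial protein at the mouth of the exit tunnel, was at 9.01, 8.90 and 8.88 log2 units in KO dark and at 9.18, 9.31 and 9.05 in KO light (0.25, SE 0.08, adjusted p = 0.204, and 0.33, SE 0.07, adjusted p = 0.00351 with the exchanged arrays). It is an average of 2 probe sets, of which 1 stands among probe sets of chromosome 2 in the order of the identifiers, while the gene lies on chromosome 7. RefSeq lists a pseudogene, Mrpl23-ps1, on that chromosome, so that the signal of this probe set may be shared with it. The difference between KO light and KO dark was 0.28 in that probe set and 0.23 in the other. Such a probe set was found for Mrpl27, Mrpl41, Mrpl48, Mrpl51, Mrps33 and Mrps36 too, and it is the only probe set of Mrpl48.

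In the WT retina, where PGC-1α was present, light was compared with dark in the same way. More of the 77 genes were higher after light, and none was called as labelled. The mean was higher in WT light for 54 and lower for 23, with a median log2 difference of 0.056 against 0.016 over all genes. Limma called 0, against 0.431% of all genes. At an unadjusted p under 0.05 there were 16 higher and 2 lower, against 2125 and 1293 of all 19937 genes. The arrays did not overlap for 21 genes on the high side, against 17.5% of all genes and 22.9% of the bright genes, and for 3 on the low side, against 10.7%. The count on the high side was thus near that of bright genes in general. With the exchanged arrays in the fit the 6 arrays compared here are the same, and only the estimate of the spread changes, which called 6 genes, all higher, against 2.13% of all genes. These were Mrpl3, Mrpl15, Mrpl51, Mrps7, Mrps14 and Mrps28.

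Mrpl51, a large subunit gene without a bacterial counterpart, was at 9.38, 9.20 and 9.29 log2 units in WT dark and at 9.59, 9.53 and 9.61 in WT light. The groups were well apart, and the log2 difference of 0.29 (SE 0.06) had an adjusted p of 0.0625 as labelled and of 0.00924 with the exchanged arrays in the fit. The difference was 0.25 and 0.32 in its 2 probe sets. The first of these stands among probe sets of chromosome 2, while the gene lies on chromosome 6. Mrpl15 was at 7.97, 7.82 and 7.87 in WT dark and at 8.21, 8.22 and 8.16 in WT light (0.31, SE 0.07, adjusted p = 0.0606, and 0.0147 with the exchanged arrays). Mrps28 was at 7.83, 7.96 and 7.90 against 8.08, 8.21 and 8.39 (0.33, SE 0.09, adjusted p = 0.0992, and 0.0151). Mrpl15 and Mrps28 were the 2 genes called in both genotypes with the exchanged arrays.

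Mrps14 and Mrpl3 had the highest differences along with Mrps28. Mrps14 was at 7.77, 7.80 and 7.75 log2 units in WT dark and at 8.25, 8.03 and 8.05 in WT light (0.34, SE 0.10, adjusted p = 0.127). Mrpl3 was at 9.08, 8.90 and 8.81 against 9.34, 9.20 and 9.24 (0.33, SE 0.09, adjusted p = 0.0981). Mrps7, whose bacterial counterpart organizes the head of the small subunit, was at 8.17, 8.35 and 8.12 against 8.50, 8.46 and 8.49 (0.27, SE 0.09, adjusted p = 0.175). The 3 genes that did not overlap on the low side were Mrps11 (-0.18), Mrpl4 (-0.17) and Mrpl22 (-0.15). Their adjusted p lay between 0.247 and 0.575. Mrps11 was at 7.99, 7.82 and 7.82 in WT dark and at 7.68, 7.76 and 7.65 in WT light, so that the family did not move as a whole.

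**Figure D3:**
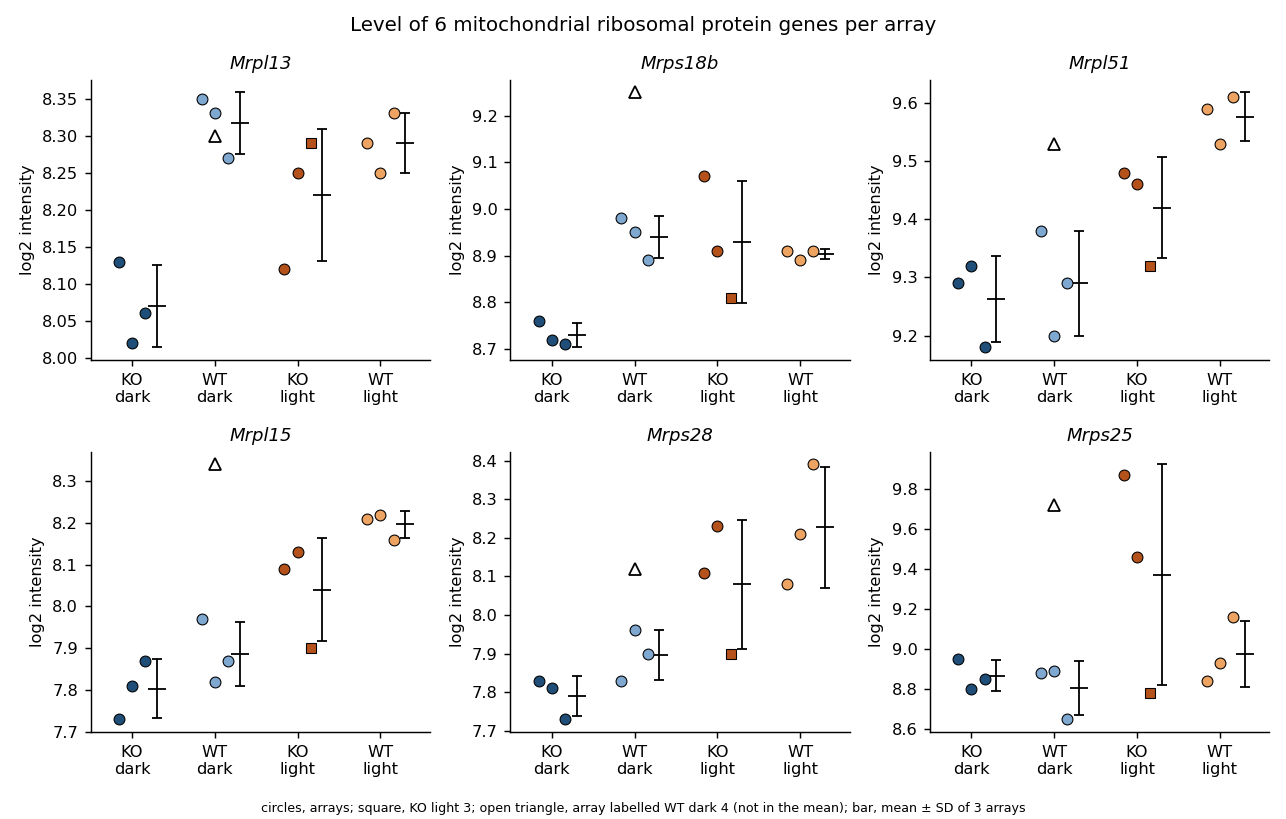
Log2 intensity per array (vertical axis, a separate scale in each panel) of Mrpl13, Mrps18b, Mrpl51, Mrpl15, Mrps28 and Mrps25 by group. Symbols are as in the plot of list means, and bars give the mean and SD of 3 arrays. Mrpl13 and Mrps18b have their lowest mean in KO dark, Mrpl51 and Mrpl15 are highest in WT light among the arrays compared, and Mrps25 is at 9.46 or higher in KO light 1, KO light 2 and the array labelled WT dark 4.

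The response to light was compared between the genotypes with the interaction, that is, the change from dark to light in KO minus the same change in WT. None of the 77 genes was called as labelled, against 0.0602% of all genes. At an unadjusted p under 0.05, 2 were higher and 2 lower, against 563 and 805 of all 19937 genes. The median was -0.029 against -0.015 over all genes, and with the exchanged arrays it was 0.022 against -0.021. The lowest genes as labelled were Mrps14 (-0.44, SE 0.14, adjusted p = 0.491) and Mrpl3 (-0.35, SE 0.12, adjusted p = 0.587). For Mrps14 the KO dark and KO light means were 7.91 and 7.80, and the WT dark and WT light means were 7.77 and 8.11. After the exchange these interactions were -0.27 (adjusted p = 0.264) and -0.20 (adjusted p = 0.319). The highest as labelled were Mrps25 (0.33, SE 0.28, adjusted p = 0.861) and Mrps26 (0.32, SE 0.15, adjusted p = 0.733, and 0.37, adjusted p = 0.222 after the exchange). Mrps25 alone was called after the exchange (0.64, SE 0.15, adjusted p = 0.0395), against 2.0% of all genes called higher.

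Apart from Mrps25, the genes with the widest ranges over the 13 arrays were Mrps21 (0.79 log2 units), Mrpl45 (0.78) and Mrps10 (0.72). Mrps21, the counterpart of a small bacterial protein, was at 11.36, 11.12 and 10.81 in WT dark and at 11.33, 10.58 and 10.74 in WT light. Mrps10 was at 8.0, 8.06 and 8.53 in WT dark and at 8.06, 8.09 and 8.44 in KO dark. The groups given overlapped for both genes. Mrpl45, which helps to hold the ribosome at the inner membrane, was at 8.20, 8.28 and 7.81 in KO light, against 8.59, 8.23 and 8.40 in WT light, with KO light replicate 3 the lowest of all arrays. It was among the genes without overlap in the dark, with 8.0 to 8.11 in KO dark and 8.17 to 8.21 in WT dark, and in WT light it was above WT dark.

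The other genes of mitochondrial translation held the 1 call made as labelled, between KO light and KO dark, where 0.1% of all genes were called. Of 51 genes measured (other proteins of the ribosome, factors of its assembly and rRNA modification, translation factors and transcription factors of the mitochondrial genome), 34 were lower on average in KO dark and 17 higher, with a median of -0.029, and none was called. Rbfa, a factor that matures the small subunit, was at 7.53, 7.52 and 7.44 log2 units in KO dark, at 7.80, 7.74 and 7.80 in WT dark, at 7.80, 7.85 and 8.05 in KO light and at 7.79, 7.87 and 7.82 in WT light. KO dark stood below all other groups, which overlapped. Rbfa rose by 0.41 (SE 0.06, adjusted p = 0.0272) from KO dark to KO light, and by 0.37 (SE 0.05, adjusted p = 0.000191) with the exchanged arrays. Over the alternatives its adjusted p for this reached 0.539, in the fit of the 2 groups alone. In the dark its difference was -0.29 (SE 0.06, adjusted p = 0.122). It was called there with the exchanged arrays (adjusted p = 0.0114), against 0.552% of all genes called lower. The interaction was 0.36 (adjusted p = 0.304) as labelled and 0.33 (adjusted p = 0.0256) with the exchanged arrays, against 2.0% of all genes called higher.

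Of the 51 genes 6 were, with the exchanged arrays, called higher in KO light than in KO dark and 1 lower, against 7.01% and 6.3% of all genes. Nsun4, which methylates the small rRNA and takes part in joining the subunits, was at 9.98 and 9.66 log2 units in KO light replicates 1 and 2, at 9.12 in KO light replicate 3 and at 9.93 in the array labelled WT dark replicate 4. It was at 9.13 to 9.30 in KO dark (difference 0.66, SE 0.09, adjusted p = 0.000225, and 0.39, adjusted p = 0.302 as labelled). Mrrf, the factor that recycles the ribosome after termination, was at 9.95, 9.59 and 9.10 in KO light, at 10.03 in the array labelled WT dark replicate 4 and at 9.04 to 9.23 in KO dark (0.73, SE 0.10, adjusted p = 0.000325, and 0.43, adjusted p = 0.266 as labelled). Both were high in the arrays in which Mrps25 and the markers of reactive Müller glia were high. Malsu1 (0.32), an assembly factor of the large subunit, and the small subunit proteins Chchd1 (0.30) and Dap3 (0.28) were called as well, besides Rbfa, and their differences as labelled were 0.19, 0.22 and 0.15. Nsun4 was also called higher in WT light than in WT dark with the exchanged arrays in the fit (0.35, adjusted p = 0.0335, and 0.295 as labelled). In that comparison 2.13% of all genes were called higher.

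Lrpprc, which stabilizes mitochondrial mRNA, was the gene called lower. It was at 9.41, 9.49 and 9.44 log2 units in KO dark, at 9.12, 9.14 and 9.29 in KO light and at 9.20 in the array labelled WT dark replicate 4. The groups did not overlap either way, and the difference was -0.26 (SE 0.05, adjusted p = 0.0781) as labelled and -0.29 (SE 0.04, adjusted p = 0.000358) with the exchanged arrays. In WT mice Lrpprc was at 9.37, 9.33 and 9.39 in the dark and at 9.34, 9.34 and 9.37 after light. Between KO light and WT light 2 of the 51 genes were called higher with the exchanged arrays and 1 lower, against 4.56% and 3.66% of all genes. Nsun4 and Mrrf had differences of 0.37 each, which were 0.10 (adjusted p = 0.839) and 0.06 (adjusted p = 0.906) as labelled. Mettl17, a factor of small subunit assembly, had a difference of -0.23 (adjusted p = 0.00585), which was -0.17 (adjusted p = 0.185) as labelled.

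The remaining extremes among the 51 were not called in these comparisons, nor under any alternative. Noa1, a GTPase of mitochondrial ribosome assembly, had the largest difference on the high side in the dark (0.12, SE 0.05, adjusted p = 0.694). Taco1, an activator of the translation of a cytochrome oxidase subunit, had the largest on the low side between KO light and WT light (-0.25, SE 0.08, adjusted p = 0.231, and -0.20 with the exchanged arrays). Clpp, the protease of the mitochondrial matrix, had the largest on the low side between WT light and WT dark (-0.12, SE 0.05, adjusted p = 0.285).

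**Figure D4:**
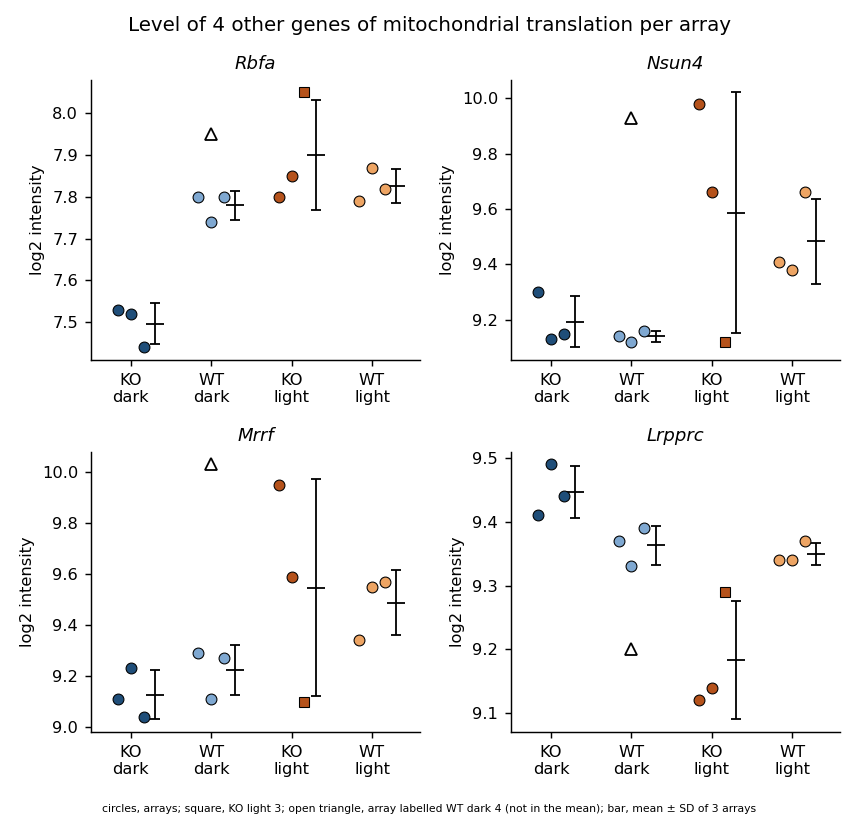
Log2 intensity per array (vertical axis, a separate scale in each panel) of Rbfa, Nsun4, Mrrf and Lrpprc by group, with symbols and bars as in the other plots. Rbfa is lowest in the 3 KO dark arrays (7.44 to 7.53), and Nsun4 and Mrrf are highest in KO light 1 and the array labelled WT dark 4.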

How the data were processed

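Retinal RNA of 13 mice was measured on 1 array each. The authors deposited probe set intensities on a linear scale, brought to a common level between arrays (array medians of 141.1 to 145.6). The methods name Partek and Bioconductor, and the submitters' processing notes name Partek. The sources used here do not give versions, summarization, normalization or genome build. No background value was used, so that dim probe sets were kept, and the 3 arrays per group limit the precision. The labels name Trizol for the extraction and the methods another kit.

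Deposited intensities were taken to log2. Of 34760 probe sets, 21640 carry 1 gene symbol, 1321 several and 11799 none, and the first kind was averaged per gene (19937 genes). The 77 genes have 85 probe sets, with more than 1 for 8 genes. A model with the 4 groups was fitted with limma 3.58.1 (R 4.3.3) to 12 arrays (8 residual degrees of freedom), without covariates, for 5 contrasts, with Benjamini-Hochberg adjustment over all genes. The interaction was called on the adjusted p of 0.05 alone. An exact permutation test of 3 against 3 arrays cannot go below p = 0.1 and was not used. The fit was tested on simulated data.

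The genes, the lists and the rule for naming genes were chosen with earlier results of these data known. Named were the genes called as labelled or with the exchanged arrays, the 3 largest rises and falls without overlap in each comparison, the 2 highest and 2 lowest interactions, the 4 widest ranges and, of the other genes of mitochondrial translation, those called and the largest rise and fall. Alternatives were the exchanged arrays, KO light replicate 3 left out, all 13 arrays, unmoderated variances (the analysis of variance that the methods name), an intensity trend with robust estimates, quantile normalization, median centring, the brightest probe set per gene, bright genes alone (the third with the lowest mean left out), a replicate block, each replicate left out, and the 2 groups alone. Replicate numbers do not pair mice: deviations of samples with the same number correlated between -0.192 and 0.22. Mice are separate by the labels.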

Additional observations from a re-analysis of the deposited data

Results flagged for a closer look

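In the 4 arrays labelled WT dark, 1 array lay far from the other 3 for 4 of the 38 genes named. It was the array labelled WT dark replicate 4 for Mrpl38 (8.73 log2 units), Mrps14 (8.11) and Nsun4 (9.93), and WT dark replicate 3 for Mrps10 (8.53). Mrpl38 was named only, and Nsun4 in part, because of calls with WT dark replicate 4 placed in KO light. Their flags are therefore no separate result. This gap test flags about 1 in 20 groups by chance, and it flagged 9 of the 77 mitochondrial ribosomal protein genes and 13.2% of all bright genes.

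The light response differed between the genotypes for 3 genes by the test of the interaction, with the exchanged arrays. These came from the 77 genes and the 51 other genes of mitochondrial translation. Of all 19937 genes 399 were called higher in this test and 156 lower. The response was higher in KO than in WT mice by 0.64 on the log2 scale for Mrps25 and by 0.33 for Rbfa. For Lrpprc the difference was -0.28. None of the 3 passed as labelled, where the adjusted p was 0.861, 0.304 and 0.452.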

How the results depend on the processing

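As labelled, 0 of the 77 genes were called in each comparison. With the exchanged arrays the counts were 1 (dark), 2 (KO light against WT light), 13 (light in KO), 6 (light in WT) and 1 (interaction). The dark call was lower, against 0.552% of all genes called lower. The others were higher, against 4.56%, 7.01%, 2.13% and 2.0% of all genes called higher in the same order. Shares over all genes are not given for the alternatives that follow. Their counts show only how the calls depend on the processing, and whether they exceed those of other genes is not known. Light in WT gave 2 calls with the intensity trend and with bright genes alone (Mrpl15 and Mrpl51 in both), and 4 with the 2 groups alone. Leaving out 1 replicate gave 0 to 1 called in the dark, 0 to 1 between the genotypes after light, 0 to 8 for light in KO and 0 to 6 for light in WT. The highest of each was without KO light replicate 3. Leaving out KO light replicate 2 called Mrpl15 for light in WT.

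The median of the 77 moved to 0.116 for light in KO and to 0.022 for the interaction with the exchanged arrays, and on leaving out 1 replicate the interaction lay between -0.038 (without KO light replicate 2) and 0.009 (without KO light replicate 3). The replicate block called 0 of the 77 in every comparison, and the numbers do not pair the mice. These reversed: Mrps27 in the dark with all 13 arrays (-0.01), Mrps6 for light in KO without KO light replicate 1 (-0.01, and up to 0.19 without others), Mrrf between the genotypes after light without KO light replicate 1 (-0.14) or WT light replicate 1 (-0.01, and up to 0.29), and Nsun4 there without KO light replicate 1 (-0.09, and up to 0.34). Of 912 values of single genes under alternatives, 826 kept direction and side of the threshold, 72 passed it only under the alternative, and 9 of Rbfa for light in KO no longer passed. The causes were not tested.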
